A study of Mus musculus with 16 samples.

Results

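Whole retinas of wildtype mice were compared between 18 months (n = 4) and 12 months (n = 3) by RNA-seq. These 7 libraries were taken by age and genotype from a series of 16. The others are 3 retinas of 12-month mice mutant for Elovl2, a gene for an enzyme that lengthens fatty acids, with the substitution written C34W in the genotype label and C234W in the series design, and 6 retinas taken at 18 months, 5 days after the eye was injected. Of these, 3 received vehicle and 3 received 0.36 nmol of the polyunsaturated fatty acid 24:5, with the fellow eye of each mouse as its control. The mice are C57BL6/J per the series design. The 12-month and 18-month wildtype retinas carried no mutation and received no injection. No label ties a library to its own animal, and the p-values reflect only how far these samples spread, some of which may be technical. In bulk tissue, fewer cells of a type and less RNA per cell cannot be told apart.

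The retina turns light into neural signals in rods and cones, passes them through bipolar cells to ganglion cells, and shapes them by inhibition from horizontal and amacrine cells. That inhibition runs largely through GABA-A and glycine receptors, chloride channels built from subunits of which the alpha subunit sets much of the drug sensitivity and kinetics. Photoreceptor membranes are rich in very long polyunsaturated fatty acids, which ELOVL2 and ELOVL4 help to make, and photoreceptors are among the cells with the highest mitochondrial energy use. In ageing mammals, slow loss of rod function, glial reactivity and altered mitochondrial and lipid metabolism are well-known themes.

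Levels are given as FPKM, a read count corrected for the length of the gene and the depth of the library. The reads recovered from them numbered 18854246 to 27082456 in the 12-month libraries and 12810558 to 15909796 in the 18-month libraries. The age groups therefore differ in depth without overlap. The cone opsin gene Opn1sw was at 142 to 152 FPKM at 12 months and 149 to 163 FPKM at 18 months. In all 7 wildtype libraries 5 lens crystallin genes were at 0, and 1 of 19 lens genes, Cryab, was expressed enough to test. The 4 Y-linked genes Ddx3y, Eif2s3y, Kdm5d and Uty had 0 reads in all 10 uninjected libraries, and Xist was at 36.7 to 107 and 49.96 to 92.5 FPKM. The libraries also differ along a contrast that crosses age. The nuclear RNA Malat1 was high in 12-month replicates 1 and 2 and 18-month replicates 2 and 3 (232, 377 and 85.7 FPKM in 12-month replicates 1, 2 and 3, 142, 229, 235 and 150 FPKM in 18-month replicates 1 to 4), and medians of several gene lists are also given within the high and within the low libraries, where the low ones hold 1 library of 12 months.

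No gene passed the threshold between the ages. By limma on log2(FPKM + 1), 0 of 13786 genes tested had a Benjamini-Hochberg adjusted p under 0.05, a background of 0%, and Gabra2 alone was below 0.9999, at 0.210. At an unadjusted p under 0.05, 233 genes (1.69%) were higher and 270 (1.96%) lower at 18 months. In 269 genes (1.95%) every 18-month library lay above every 12-month library, and in 306 (2.22%) every one lay below. Of all genes tested, 49.4% had a higher mean at 18 months, with a median log2 difference of -0.0014. With reads recovered from FPKM, Gabra2 was the 1 gene called by edgeR, and DESeq2 called 9. The 95% interval of the age difference, on the log2(FPKM + 1) scale, lay within 1.5-fold in either direction for 87.1% of genes. It lay within 2-fold for 96.3%. That scale understates changes of low genes, so for them these are not limits on the fold change in FPKM.

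**Figure D1:**
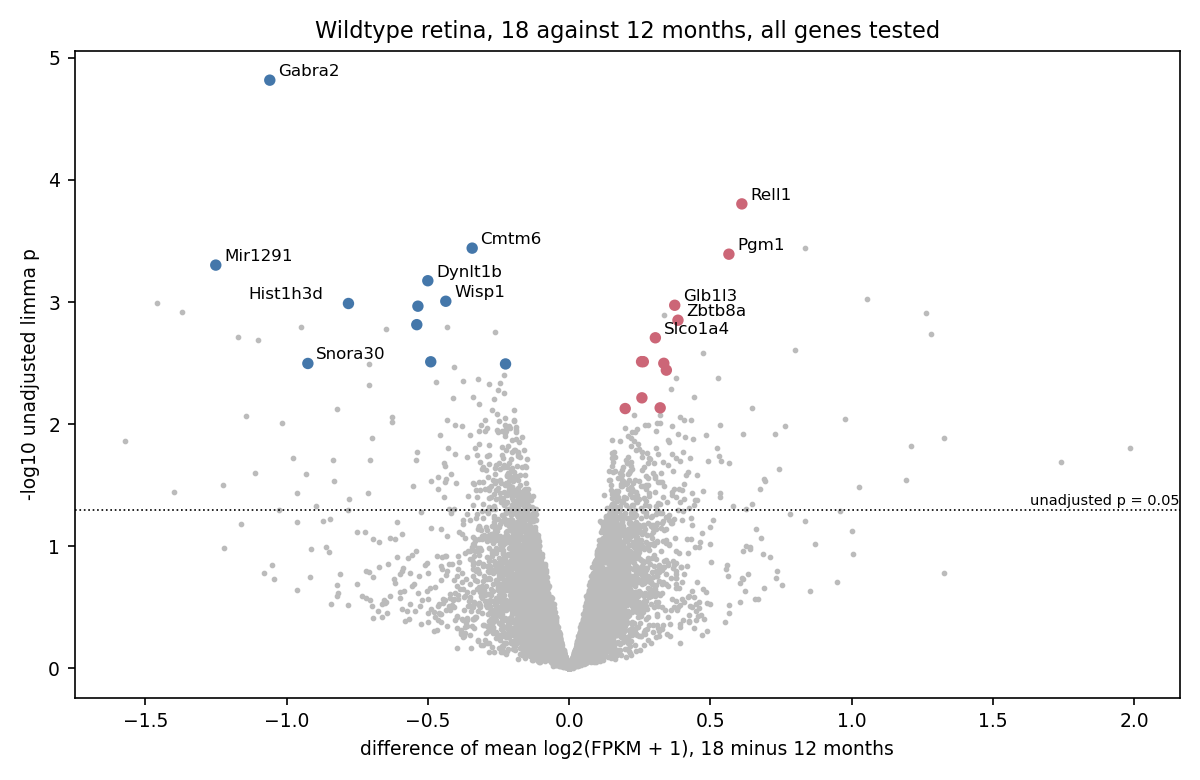
Each point is 1 of 13786 genes, with the difference of mean log2(FPKM + 1) between 18 and 12 months on the horizontal axis and the -log10 unadjusted limma p on the vertical axis. Coloured points are the 5 markers and the genes named for their small p, predicted models and pseudogenes left out, red where higher and blue where lower at 18 months. Of the coloured points Gabra2 stands highest, at a difference of -1.06, and Rell1, Cmtm6 and Pgm1 come next. The grey point just above Pgm1, at 0.84, is the long noncoding RNA gene Gm28265.

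Gabra2 (ENSMUSG00000000560, chr5:70957597-71095849, minus strand, mm10), which encodes the alpha-2 subunit of the GABA-A receptor, ranked first of all genes by p. It was at 4.86, 6.13 and 5.85 FPKM in 12-month replicates 1, 2 and 3 and at 1.93, 2.34, 2.06 and 2.33 FPKM in 18-month replicates 1 to 4. Every 18-month library lay below every 12-month library, and the 18-month values sat within a narrow band. The mean was 2.59-fold lower at 18 months, with a log2(FPKM + 1) difference of -1.06 (SE 0.134, 95% interval -1.36 to -0.76, limma adjusted p = 0.210). It therefore missed the threshold by limma, while edgeR on recovered reads gave log2 -1.36 with adjusted p = 0.0229. With each wildtype library left out in turn the difference ranged over -1.14 to -1.003, and within the Malat1-high and Malat1-low libraries it was -1.01 and -1.13. The Elovl2 mutants at 12 months were at 5.56, 5.09 and 3.42 FPKM, and the last of these lay nearer to the 18-month libraries than the other two.

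**Figure D2:**
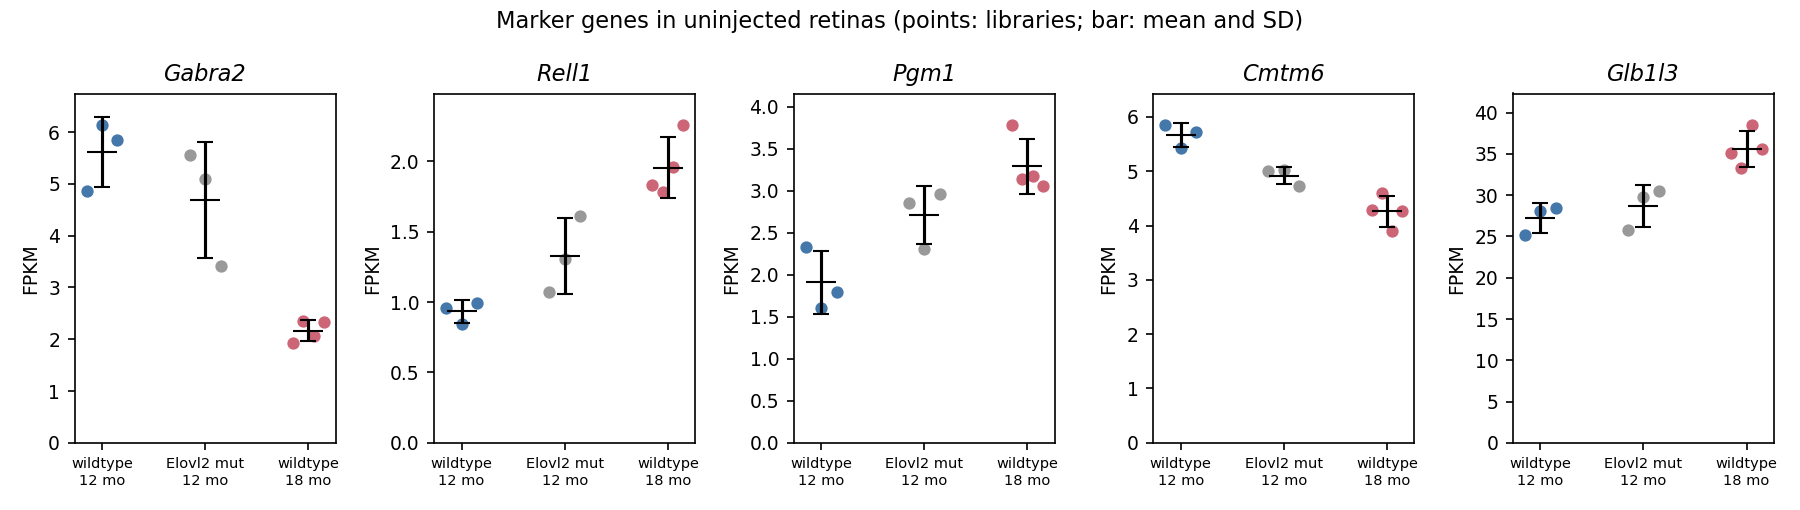
FPKM of Gabra2, Rell1, Pgm1, Cmtm6 and Glb1l3 in the uninjected retinas by group, with 1 point per library and bars for the mean and SD. The 12-month and 18-month wildtype libraries do not overlap for any of the 5 genes, which were named because of that difference.

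Gabra3 and Gabra4, which encode other alpha subunits, gave no such difference. Gabra3 was at 11.3, 11.1 and 14.6 FPKM at 12 months and 15.1, 12.1, 13.4 and 14.7 FPKM at 18 months, and Gabra4 at 1.33, 1.76 and 3.10 and 2.28, 1.999, 2.05 and 2.24 FPKM. Both overlapped between the ages, and Gabra6 was at 0 in every library.

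The injected retinas, which were counted in a separate table and not used in the age comparison, provide 6 further libraries of 18-month mice. With the fellow eye as control, they may be paired eyes of fewer mice. No label gives the pairs, so the 6 libraries may not be independent samples. RPM are reads scaled to the library total over the 21721 protein-coding genes of both tables, with mitochondrial genes left out. Gabra2 was at 21.1, 20.4 and 18.8 RPM with vehicle and 27.2, 19.5 and 18.3 RPM with 24:5. The uninjected wildtype libraries were at 43.4, 52.1 and 50.4 RPM at 12 months and 16.8 to 20.001 RPM at 18 months. All 6 injected libraries lay below every uninjected 12-month library, mutants included, of which the lowest was at 29.3 RPM. Of the 6, 3 lay above every uninjected 18-month library. The group means were 48.6 ± 4.61 in wildtype at 12 months (SD, n = 3) and 18.6 ± 1.66 at 18 months (SD, n = 4). The tables were made separately, so these levels stand side by side with no test.

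**Figure D3:**
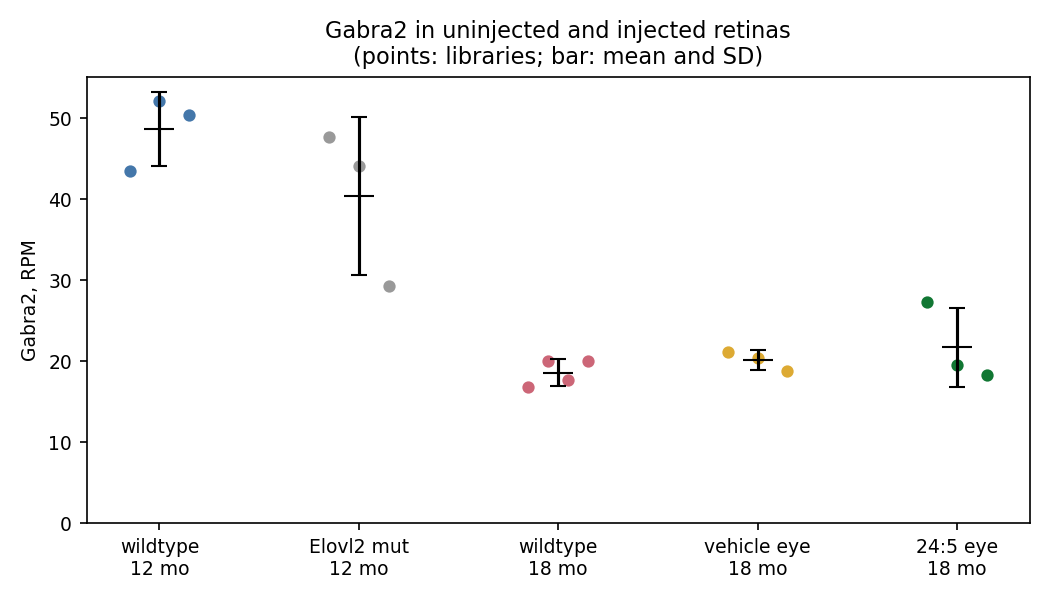
Gabra2 in RPM in the 16 libraries by group, with 1 point per library and bars for the mean and SD. The 12-month wildtype libraries sit between 43.4 and 52.1, the 4 uninjected 18-month libraries between 16.8 and 20.001 and the 6 injected 18-month libraries between 18.3 and 27.2.

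Most other subunits of these receptor families were slightly higher at 18 months, and none passed the test. Of 26 GABA and glycine receptor genes listed, 22 were tested, 20 of 22 were higher at 18 months and 0 were called. Their median log2 difference was 0.16, against -0.0014 over all genes, and at 0.07 to 0.27 with each library left out. Within the Malat1-high and Malat1-low libraries it was 0.24 and 0.0041, the latter near 0. The low end of the range came without 12-month replicate 1, which had the lowest value of Gabrr1 and Glra3 among the wildtype libraries. Gabrr1, a subunit of the GABA receptors on bipolar terminals, was at 31.6, 44.9 and 52.1 FPKM at 12 months and 55.7, 48.8, 55.4 and 55.2 FPKM at 18 months (log2 0.35, SE 0.149). Its groups overlapped, since 12-month replicate 3 lay above 18-month replicate 2. Glra3, a glycine receptor alpha subunit, was at 2.92 to 4.73 and 4.48 to 4.85 FPKM, and gephyrin (Gphn), which anchors these receptors, at 15.8 to 15.97 and 16.1 to 17.7 FPKM. Gabra2 sits in a cluster of GABA-A subunit genes, and its neighbours Gabrg1 (log2 0.17), Gabra4 (0.08) and Gabrb1 (0.15) all had an unadjusted limma p above 0.05.

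Rell1 and Pgm1, the next named genes on the higher side, are near neighbours on the chromosome of Gabra2. Rell1 (ENSMUSG00000047881, chr5:63908897-63968897, minus strand), a member of the RELT branch of the TNF receptor superfamily, was at 0.959, 0.843 and 0.997 FPKM at 12 months and 1.83, 1.78, 1.96 and 2.26 FPKM at 18 months. All 18-month libraries lay above all 12-month libraries, with a mean 2.10-fold higher and a log2 difference of 0.61 (SE 0.103). Rell1 passed by DESeq2 (adjusted p = 0.000968) and not by limma (adjusted p = 0.9999) or edgeR (adjusted p = 0.562). The 12-month mutants, at 1.07, 1.30 and 1.61 FPKM, lay between these groups. Pgm1 (ENSMUSG00000029171, chr5:64092950-64128351, plus strand) is the symbol in the deposited table for a phosphoglucomutase family gene that the RefSeq and GENCODE names call Pgm2, while the table's Pgm2 is the gene on chromosome 4. Pgm1 was at 2.32, 1.61 and 1.79 FPKM at 12 months and 3.78, 3.14, 3.18 and 3.06 FPKM at 18 months, again without overlap, and 18-month replicate 1 was the highest. Its log2 difference was 0.57 (SE 0.108), it ranged over 0.49 to 0.67 with each library left out, and the mutants were at 2.86, 2.31 and 2.96 FPKM. Of 7 RELT family and TNF receptor genes tested 3 were higher, with a median log2 difference of -0.02 (-0.10 without 12-month replicate 2 and 0.09 without 12-month replicate 1), and of 29 glycolysis and glycogen genes 24 were higher, with a median of 0.03 (-0.0095 without 12-month replicate 2 and 0.17 without 12-month replicate 3). The table's Pgm2 was at 26.5 ± 6.12 FPKM at 12 months (SD, n = 3) and 26.4 ± 1.89 FPKM at 18 months (SD, n = 4).

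The gap between Rell1 and Pgm1 is 124 kb, and Rell1 lies 6.99 Mb from Gabra2. Tbc1d1, a Rab GTPase activator, is 28.0 kb beyond Pgm1 and was at 1.72, 2.06 and 2.18 FPKM at 12 months and 2.82, 2.34, 2.15 and 2.66 FPKM at 18 months (log2 0.22, SE 0.0902), with overlap between 12-month replicate 3 and 18-month replicate 3. Its 12-month mutants, at 2.62, 2.65 and 2.70 FPKM, lay above every 12-month wildtype library and within the 18-month range. Of 73 genes tested within 10 Mb of Gabra2, 40 were higher at 18 months, the median log2 difference was 0.0073, and 4 were higher and 2 lower without overlap between the ages, where 1.95% and 2.22% of all genes were. Gabra2, Rell1 and Pgm1 are among these 6 and were chosen on this comparison. The others were Srp72 (log2 0.15), which encodes a subunit of the signal recognition particle, the pseudogene Ube2n-ps1 (0.31) and the receptor tyrosine kinase gene Pdgfra (-0.43). The 12-month mutants were at 17.9, 18.1 and 17.9 FPKM for Srp72, within the 18-month range of 17.7 to 19.02 FPKM. They were at 3.10, 3.36 and 4.97 FPKM for Ube2n-ps1 and 1.05, 1.40 and 1.19 FPKM for Pdgfra. Chromosome 5 held 8 of the 100 genes with the smallest p and 6.72% of all genes tested.

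The start-site regions of these 3 genes are shown because they lie on 1 chromosome and differed between the ages in opposite directions. Each is the 250 bases before the RefSeq start site (GRCm38.p6), 5′ to 3′ on the strand of the gene, at chr5:71095850-71096099 for Gabra2, chr5:63968898-63969147 for Rell1 and chr5:64092689-64092938 for Pgm1. Capitals mark the letters CCAAT, then those of the GC box (GGGCGG), then those of the TATA box (TATAAA), each on either strand, and no marked stretch overlaps another.
Gabra2: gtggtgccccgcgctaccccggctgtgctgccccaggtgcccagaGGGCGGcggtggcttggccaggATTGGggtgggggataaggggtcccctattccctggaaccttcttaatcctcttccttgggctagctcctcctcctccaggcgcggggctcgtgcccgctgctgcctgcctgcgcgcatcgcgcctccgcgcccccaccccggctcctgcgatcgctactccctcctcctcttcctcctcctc
Rell1: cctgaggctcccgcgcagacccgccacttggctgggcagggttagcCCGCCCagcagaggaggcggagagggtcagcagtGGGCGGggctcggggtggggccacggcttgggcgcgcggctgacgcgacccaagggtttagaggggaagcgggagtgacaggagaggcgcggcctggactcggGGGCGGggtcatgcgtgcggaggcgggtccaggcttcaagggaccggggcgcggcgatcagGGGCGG
Pgm1: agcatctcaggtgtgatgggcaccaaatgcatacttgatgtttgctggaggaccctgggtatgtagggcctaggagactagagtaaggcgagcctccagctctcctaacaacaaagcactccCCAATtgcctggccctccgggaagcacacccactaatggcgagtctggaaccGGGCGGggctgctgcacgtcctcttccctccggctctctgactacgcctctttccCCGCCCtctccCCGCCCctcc
All 3 windows hold GGGCGG, found in 32.7% of 32851 RefSeq promoter windows of this length. Gabra2 and Pgm1 hold CCAAT, found in 33.8%, and Rell1 does not. None of them holds TATAAA, found in 12.4%. The windows of Gabra2, Rell1 and Pgm1 have 18, 26 and 10 CG dinucleotides, where the median over all windows is 6. A match describes the letters only.

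Cmtm6 and Glb1l3, both on chromosome 9, had smaller differences with little spread. Cmtm6 (ENSMUSG00000032434, chr9:114731116-114749344, plus strand), a membrane protein gene whose product keeps PD-L1 at the cell surface, was at 5.85, 5.43 and 5.73 FPKM at 12 months and 4.29, 4.60, 3.90 and 4.26 FPKM at 18 months. It was 1.33-fold lower without overlap (log2 -0.34, SE 0.0647, limma adjusted p = 0.9999), and the 3 mutants, at 5.01, 5.02 and 4.73 FPKM, lay between the ages. Glb1l3 (ENSMUSG00000031966, chr9:26817953-26860890, minus strand), a beta-galactosidase-like gene, was at 25.2, 28.1 and 28.5 FPKM at 12 months and 35.1, 33.3, 38.5 and 35.6 FPKM at 18 months, and all 18-month libraries were above all 12-month ones. It was 1.31-fold higher (log2 0.37, SE 0.0817), and the mutants, at 25.8, 29.8 and 30.5 FPKM, lay in or just above the 12-month wildtype range, below all 18-month libraries. Related genes showed no common direction. Of 9 CMTM and MARVEL genes tested 4 were higher, with a median log2 difference of -0.0061 (-0.10 without 12-month replicate 2 and -0.0013 without 18-month replicate 3), and of 18 lysosomal glycosidase genes 11 were higher, with a median of 0.02 (-0.00064 without 12-month replicate 2 and 0.04 without 18-month replicate 2).

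In the injected 18-month retinas the 5 genes did not all keep to the side of the uninjected 18-month retinas. Rell1 was at 6.68 to 8.74 RPM in the 6 injected libraries, against 4.09 ± 0.414 in wildtype at 12 months (SD, n = 3) and 8.47 ± 0.917 at 18 months (SD, n = 4). Pgm1 was at 9.30 to 12.97 against 5.63 ± 1.255 and 9.57 ± 1.04 RPM, and for both genes all 6 lay above every 12-month wildtype library. Cmtm6 was at 19.3 to 25.6 RPM, which spans the 12-month level of 22.2 ± 1.37 and lies above the 18-month level of 16.5 ± 1.12. Glb1l3 varied most, from 61.2 to 142 RPM, against 81.0 ± 3.58 at 12 months and 104.7 ± 6.17 at 18 months. Elovl2 was at 70.5 to 81.4 RPM in the injected libraries and at 87.7 RPM or more in all 10 uninjected ones, so a level can differ between the tables as well as between ages.

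The other 9 genes named for the smallest p on the higher side, without predicted models, differed by 1.18-fold to 1.37-fold, and none passed the test. Zbtb8a, a zinc finger transcription factor gene, was at 4.03, 4.75 and 3.43 FPKM at 12 months and 5.42, 5.88, 5.67 and 5.37 FPKM at 18 months (log2 0.38, SE 0.0877). The mutants, at 4.08, 3.75 and 4.01 FPKM, were like the 12-month wildtype libraries. Slco1a4, an organic anion transporter of brain and retinal capillaries, was at 2.28, 1.88 and 2.14 and 2.998, 2.87, 2.75 and 2.68 FPKM (log2 0.30), with the mutants at 2.72, 2.86 and 2.61 FPKM. Of the endothelial and pericyte list that holds it, 9 of 15 were higher with a median of 0.05 (-0.02 without 12-month replicate 2 and 0.12 without 12-month replicate 3). Ebf1, a transcription factor of the EBF family, was at 2.56, 2.63 and 2.40 FPKM at 12 months and 2.96, 3.30, 3.28 and 3.34 FPKM at 18 months (log2 0.26), where 18-month replicate 1 was the lowest of its group, and at 3.24, 3.39 and 3.18 FPKM in mutants. Clic4, a chloride intracellular channel gene, had a log2 difference of 0.26, and its mutant libraries, at 5.65 to 6.22 FPKM, overlapped the 18-month range of 5.78 to 6.49 FPKM.

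The remaining named genes on the higher side encode membrane and organelle proteins. Lhfpl3, a tetraspan protein gene, was at 15.9 to 18.0 and 19.4 to 24.7 FPKM (log2 0.33), and Car10, a carbonic anhydrase-related protein that binds neurexins, at 8.90 to 11.3 and 12.3 to 14.4 FPKM (0.34). Slc25a23, the mitochondrial ATP-Mg and phosphate carrier, was at 18.7 to 21.4 and 23.1 to 25.8 FPKM (0.26). Creg1, a glycoprotein of the endolysosome, was at 17.4 to 21.5 and 21.7 to 26.2 FPKM (0.32). Ephb1, a receptor that guides retinal axons, was at 4.25 to 4.61 and 5.00 to 5.32 FPKM (0.20). The wildtype groups do not overlap for any of these 5 genes, and the gap is narrowest for Creg1. The 12-month mutants were at 19.5, 20.1 and 19.2 FPKM for Lhfpl3 and 12.8, 11.4 and 13.2 FPKM for Car10. They were at 24.4, 21.0 and 22.8 FPKM for Slc25a23, 20.2, 22.9 and 21.7 FPKM for Creg1 and 4.43, 4.81 and 4.72 FPKM for Ephb1. For Lhfpl3 and Car10 all mutants lay above every 12-month wildtype library. For each gene but Ephb1 a mutant library lay within the 18-month range.

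On the lower side, the named genes included a transcription factor gene, histone genes and small RNAs. Wisp1, a matricellular protein gene, was at 9.33, 10.2 and 8.08 FPKM at 12 months and 5.64, 6.77, 7.32 and 6.42 FPKM at 18 months (log2 -0.44, SE 0.0944). It passed by DESeq2 (adjusted p = 0.0231) and not by limma (adjusted p = 0.9999) or edgeR (adjusted p = 0.924). Zbtb16, a transcription repressor gene known to respond to glucocorticoids, was at 2.01, 1.61 and 1.497 and 0.707, 0.734, 1.03 and 1.004 FPKM (log2 -0.54). Zbtb16 also passed by DESeq2 (adjusted p = 0.0158) and not by limma (adjusted p = 0.9999) or edgeR (adjusted p = 0.924). Cdh24, a cadherin gene, was at 5.23 to 6.87 and 3.89 to 4.36 FPKM (log2 -0.49), and Cnih2, which encodes an auxiliary subunit of AMPA receptors, at 14.7 to 16.1 and 12.2 to 13.3 FPKM (-0.23). The mutants were at 16.03, 15.8 and 15.1 FPKM for Cnih2, beside the 12-month wildtype libraries. They were at 8.72, 8.04 and 7.95 FPKM for Wisp1, 1.66, 1.56 and 1.18 FPKM for Zbtb16 and 5.97, 3.80 and 4.79 FPKM for Cdh24. Of the Cdh24 values, the lowest lay below every 18-month library.

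Both histone H3 genes on this side are normally transcribed into RNAs without a poly(A) tail, as are small nucleolar RNAs, and the libraries were poly(A)-selected. Hist1h3d was at 1.94, 1.71 and 1.59 FPKM at 12 months and 0.762, 0.299, 0.749 and 0.620 FPKM at 18 months (log2 -0.78), and Hist2h3c2 at 11.9, 9.11 and 8.36 and 5.99, 6.87, 5.44 and 7.25 FPKM (-0.54). Of 19 histone genes tested 15 were lower, with a median log2 difference of -0.09, and 5 of them lay without overlap, where 2.22% of all genes were lower in this way. The median was -0.24 to -0.12 with each library left out, the low end without 12-month replicate 3. Snora30, a box H/ACA small nucleolar RNA, was at 3.36, 5.08 and 3.74 and 1.57, 1.72, 1.92 and 1.38 FPKM (log2 -0.92), with the mutants at 2.73, 0.712 and 0.975 FPKM. Over 97 small nucleolar RNA genes the median was -0.09, -0.31 without 12-month replicate 3 and 0.09 without 12-month replicate 2, and it turned to 0.05 by edgeR on recovered reads. Mir1291, a microRNA hairpin gene of 117 bases, was at 3.16, 3.47 and 5.29 and 0.581, 1.91, 0.533 and 1.53 FPKM (log2 -1.25), with the mutants at 1.52, 1.05 and 1.62 FPKM. At such lengths the FPKM of Mir1291 and Snora30 rest on few reads, fewest in the shallower 18-month libraries. The filter of edgeR on low counts removed both.

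Dynlt1b, a light chain gene of the dynein motor, was at 10.3, 9.02 and 7.45 FPKM at 12 months and 5.90, 5.90, 5.66 and 6.42 FPKM at 18 months (log2 -0.50, SE 0.102). It is one of several near-identical copies on chromosome 17, between which reads may have been divided, and its level is uncertain. Its copy Dynlt1c had a log2 difference of 0.04. The pseudogene Tmem181b-ps, 2.23 kb from Dynlt1b and chosen after its values were seen, was at 12.1, 14.7 and 8.04 and 4.59, 6.56, 6.55 and 4.14 FPKM (log2 -0.95), and passed with the Malat1 contrast as a term in limma (log2 -0.86, adjusted p = 0.00576). A second locus seen after the values lies on chromosome 15, where the long noncoding RNA genes Gm28265 and Gm10830 overlap on opposite strands and Gm28876 lies 173 bases away. All 3 were higher at 18 months without overlap, with log2 differences of 0.84, 1.05 and 1.28. Gm28265 was at 0.406, 0.832 and 0.362 FPKM at 12 months and 1.41, 1.45, 2.50 and 1.62 FPKM at 18 months, and the mutants, at 0.766, 0.652 and 0.628 FPKM, were like the 12-month wildtype libraries. Whether the counting used strand is not given in the sources used here, so reads of Gm28265 and Gm10830 cannot be told apart.

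Among the gene lists, the respiratory chain genes encoded by mitochondrial DNA had the highest median. Of these genes 12 of 13 were higher at 18 months, 10 at an unadjusted limma p under 0.05 where 1.69% of all genes were, and 0 were called. The median log2 difference was 0.40, at 0.34 to 0.48 with each library left out, and 0.17 and 0.63 within the Malat1-high and Malat1-low libraries. These genes are transcribed together as long precursors, so they are not independent. mt-Co2, a subunit of cytochrome c oxidase, was at 281, 161 and 175 FPKM at 12 months and 410, 404, 436 and 335 FPKM at 18 months (log2 0.98, SE 0.301). mt-Co1, the catalytic subunit, was at 5892, 5422 and 5474 and 8295, 7588, 6405 and 7078 FPKM (0.39), and mt-Cytb, of complex III, at 5157, 5140 and 3969 and 6837, 6235, 5386 and 6159 FPKM (0.38). In all 3 genes the 18-month libraries lay above the 12-month ones, as they did in mt-Nd4. mt-Nd6, encoded on the other strand, was the exception, at 1961, 1754 and 1528 and 1863, 1799, 1525 and 1641 FPKM (-0.03).

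The 13 genes took 3.17, 2.85 and 2.46% of reads at 12 months and 4.01, 3.63, 3.11 and 3.52% at 18 months. The groups overlapped, since 12-month replicate 1 lay above 18-month replicate 3, and an exact permutation test of the means gave p = 0.0857 (two-sided, adjusted p = 0.400 over 14 library values, smallest possible p 0.0286). The mutants were at 3.06, 3.65 and 3.69%. Nuclear-encoded subunits of the same chain were higher in 33 of 36 cases with a median of 0.09, which was -0.02 without 12-month replicate 2 and 0.24 without 12-month replicate 3, and 0.10 and -0.05 within the Malat1-high and Malat1-low libraries. Cytosolic ribosomal protein genes were higher in 31 of 31 cases with a median of 0.14, which was 0.03 and 0.29 without these libraries, and 0.11 and 0.02 within the Malat1-high and Malat1-low ones. The ribosomal gene Rpl27 was higher without overlap, at 72.3, 65.9 and 75.9 FPKM at 12 months and 114, 76.3, 78.1 and 96.3 FPKM at 18 months (log2 0.33).

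**Figure D4:**
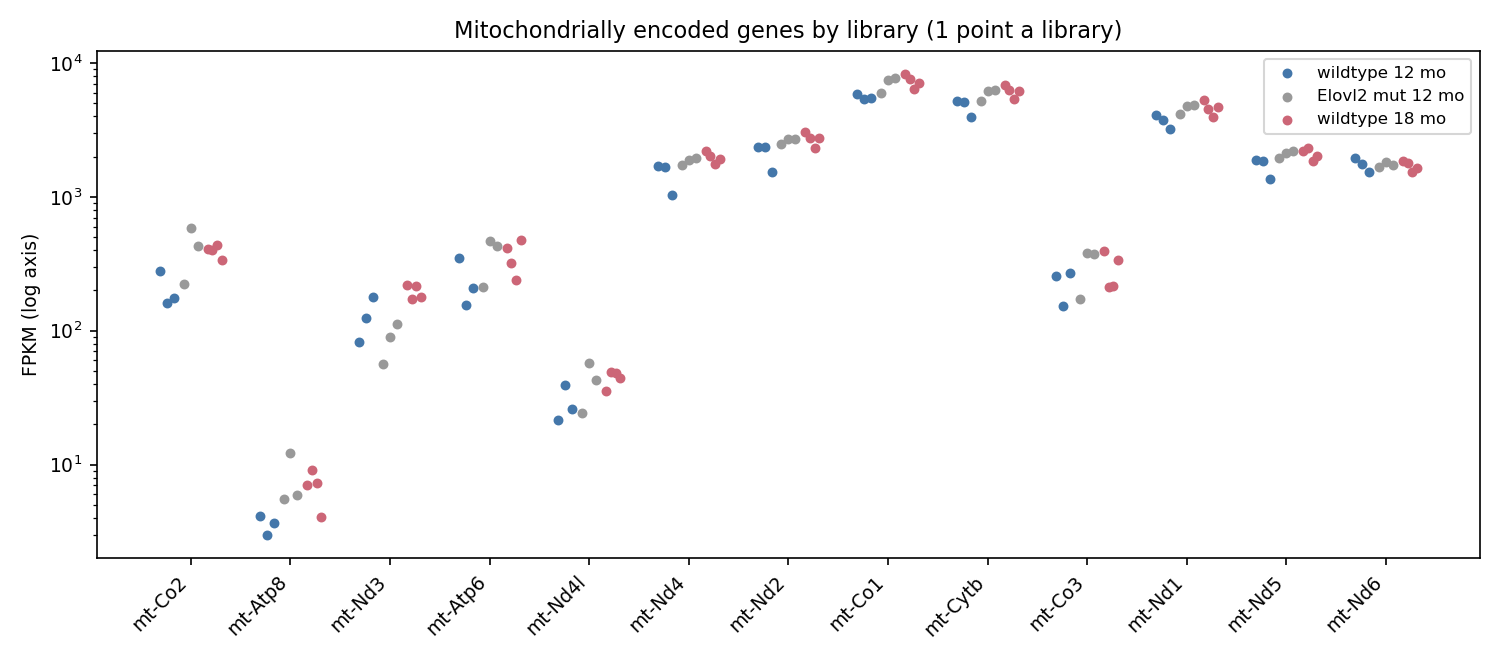
FPKM on a log axis of the 13 protein-coding genes of mitochondrial DNA, with 1 point per uninjected library and colours for the groups. The 18-month points of mt-Co2, mt-Co1, mt-Cytb and mt-Nd4 lie above all 12-month wildtype points, and those of mt-Nd6 lie among them.

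Photoreceptor genes differed little between the ages. Of the rod genes 14 of 22 were higher with a median of 0.03 (0.02 without 18-month replicate 4 and 0.07 without 12-month replicate 3). Nr2e3, a rod fate transcription factor gene, was at 218 to 267 and 205 to 223 FPKM (-0.16). Of the cone genes 10 of 14 were higher with a median of 0.05 (0.02 without 18-month replicate 1 and 0.08 without 18-month replicate 2), Opn1mw was at 78.3 to 92.8 and 89.3 to 124 FPKM, and Opn1sw at 142 to 152 and 149 to 163 FPKM. Bipolar cell genes were higher in 16 of 19 cases with a median of 0.15, which was 0.04 without 12-month replicate 1. Nyx, which encodes the synaptic protein nyctalopin of ON bipolar cells, was at 5.55, 5.01 and 4.91 FPKM at 12 months and 5.91, 6.48, 6.21 and 7.09 FPKM at 18 months without overlap (log2 0.27, SE 0.0848). Slc17a7, the vesicular glutamate transporter of photoreceptor and bipolar terminals, was at 259, 271 and 269 and 305, 304, 309 and 312 FPKM (log2 0.21, SE 0.0681), with no overlap. Of the ionotropic glutamate receptor genes 7 of 13 were higher with a median of 0.01 (-0.05 without 18-month replicate 2 and 0.10 without 12-month replicate 2), while Gria3, an AMPA receptor subunit, was lower without overlap at 4.04, 4.37 and 3.99 and 3.49, 3.82, 3.68 and 3.73 FPKM (log2 -0.13), as was the NMDA receptor subunit Grin2d (log2 -0.14). For ganglion cells, 11 of 16 genes were lower with a median of -0.02 (-0.10 without 12-month replicate 2 and 0.02 without 12-month replicate 3). Amacrine and horizontal cell genes were higher in 11 of 15 cases with a median of 0.06, which was -0.03 without 12-month replicate 1 and 0.17 without 12-month replicate 3, and 0.13 and -0.04 within the Malat1-high and Malat1-low libraries.

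**Figure D5:**
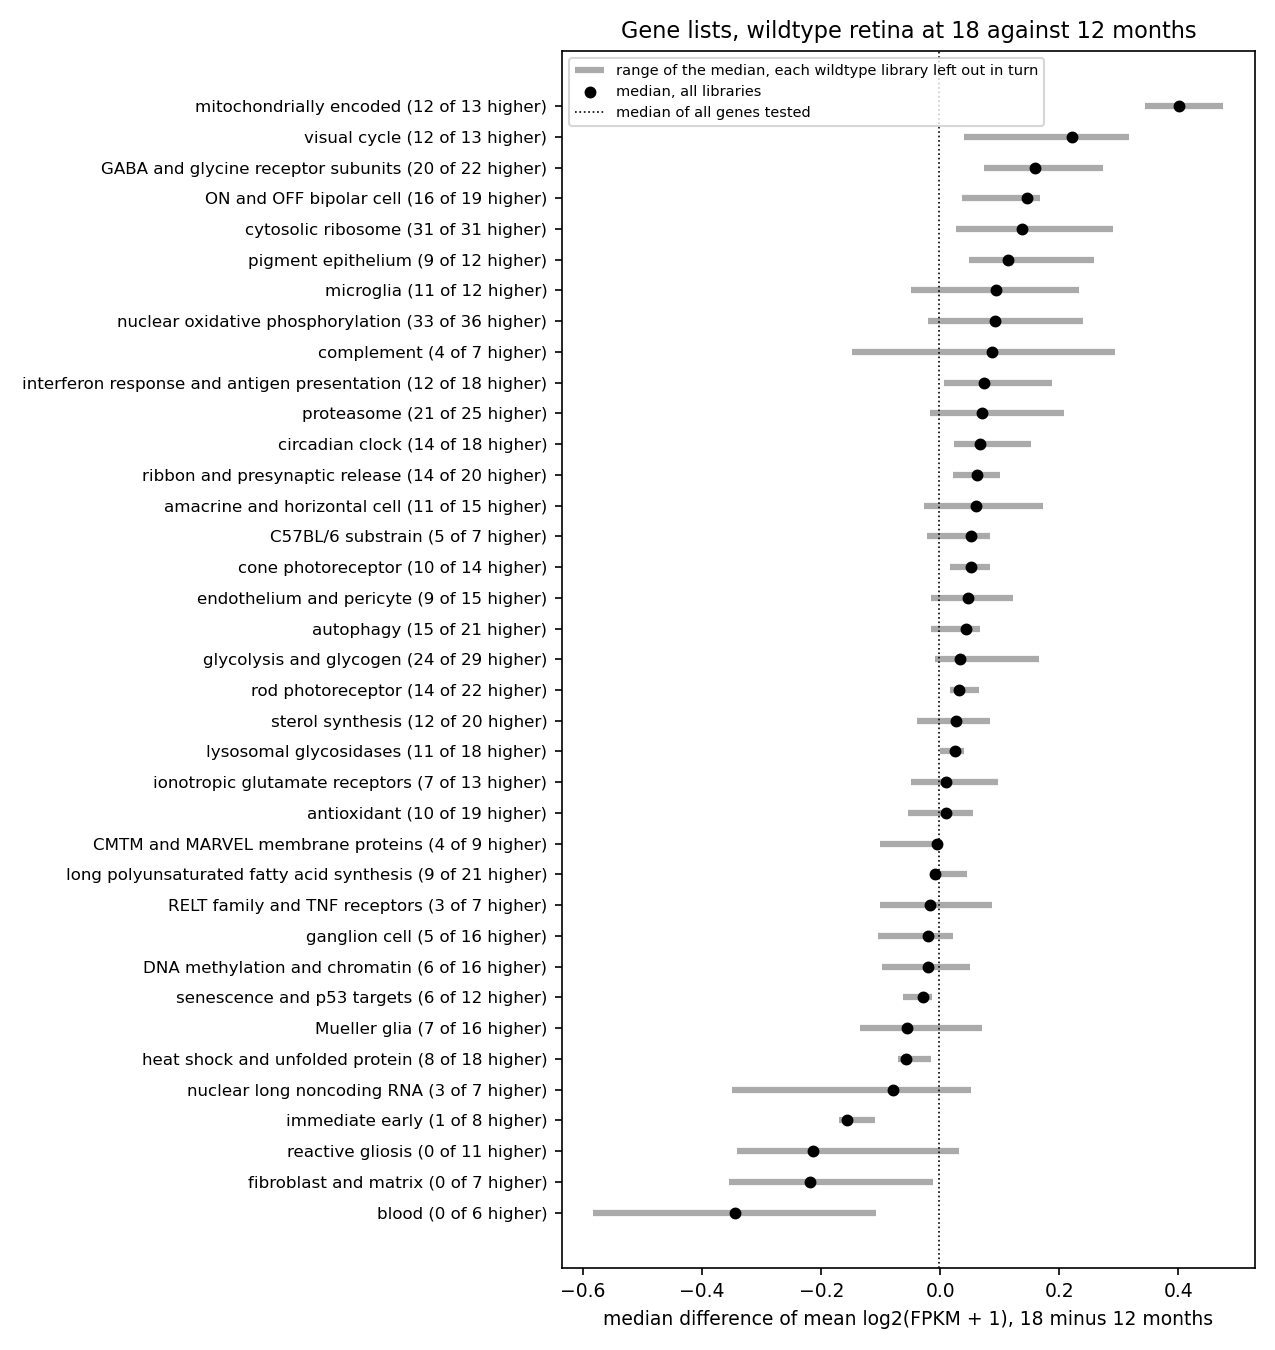
Median difference of mean log2(FPKM + 1) between 18 and 12 months for each gene list with 5 or more genes tested, as a point, with a grey bar for the range of that median when each wildtype library is left out in turn. The mitochondrially encoded list sits at 0.40 and its bar stays above 0, while the bars of the reactive gliosis, microglia and nuclear oxidative phosphorylation lists cross 0.

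The glial and immune list medians depended on which 12-month libraries were used. Counts are of genes expressed enough to test, 11 of 16 reactive gliosis, 12 of 18 microglia, 7 of 17 complement and 18 of 24 interferon genes. For the fibroblast and matrix list these were 7 of 15 genes, and for the blood list 6 of 11. Of the reactive gliosis genes 11 of 11 were lower with a median of -0.21, which became 0.03 without 12-month replicate 1. It was -0.30 and 0.02 within the Malat1-high and Malat1-low libraries. Gfap, the intermediate filament of reactive Müller glia, was at 13.8, 4.54 and 3.88 FPKM at 12 months and 6.59, 5.31, 3.38 and 3.46 FPKM at 18 months, and Edn2, an endothelin gene that stressed photoreceptors express, at 23.1, 4.93 and 2.12 and 3.35, 7.04, 3.24 and 2.77 FPKM. Serpina3n, an acute-phase gene of reactive glia, was at 9.11, 2.66 and 2.78 and 3.03, 4.26, 2.27 and 2.25 FPKM. In all 3 genes 12-month replicate 1 stood above every other wildtype library. Microglia genes were higher in 11 of 12 cases with a median of 0.09, which was -0.05 without 12-month replicate 2 and 0.23 without 12-month replicate 1, and -0.04 and 0.22 within the Malat1-high and Malat1-low libraries. P2ry12, a gene of resting microglia, was at 0.818 to 1.56 and 1.26 to 1.59 FPKM. Complement genes (4 of 7 higher, median 0.09, -0.15 to 0.29 with each library left out) and interferon and antigen presentation genes (12 of 18 higher, median 0.07, 0.0069 to 0.19) included no gene without overlap. Over all genes 1.95% were higher and 2.22% lower without overlap, so 0 in lists this small says little. Of Müller glia genes 9 of 16 were lower with a median of -0.06 (-0.14 without 12-month replicate 2 and 0.07 without 12-month replicate 1), and Kcnj10, their potassium channel, was lower without overlap, at 14.3, 13.6 and 13.7 FPKM at 12 months and 12.2, 13.5, 12.2 and 12.5 FPKM at 18 months (log2 -0.13). Fibroblast and matrix genes were lower in 7 of 7 cases with a median of -0.22, which was -0.01 without 12-month replicate 1, and Pdgfra (1.95, 1.31 and 1.22 and 0.908, 1.101, 0.678 and 0.672 FPKM) and Col6a1 (8.55, 8.86 and 6.17 and 5.80, 5.74, 5.12 and 5.24 FPKM) did not overlap. Blood genes were lower in 6 of 6 cases with a median of -0.34, which was -0.58 without 12-month replicate 2 and -0.11 without 12-month replicate 3. The antigen presentation gene Cd74, at 4.29, 0.972 and 1.097 FPKM at 12 months and 1.253, 0.635, 0.707 and 0.888 FPKM at 18 months, was again highest in 12-month replicate 1, while haemoglobin Hbb-bt was highest in 12-month replicate 3, at 4.07, 3.76 and 11.6 against 5.22, 1.70, 6.12 and 3.73 FPKM.

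Visual cycle genes were higher in 12 of 13 cases with a median of 0.22, which was 0.04 without 18-month replicate 1 and 0.32 without 18-month replicate 2. Several of them are expressed in the pigment epithelium, which adheres to the retina at dissection. Rpe65, the retinoid isomerase of that epithelium, was at 5.72, 8.30 and 13.8 FPKM at 12 months and 21.8, 7.95, 11.3 and 22.3 FPKM at 18 months. The high values were in 12-month replicate 3 and 18-month replicates 1 and 4, which are the Malat1-low libraries. Lrat, which makes retinyl esters there, was at 1.32, 1.67 and 2.51 and 4.95, 1.66, 2.71 and 5.21 FPKM and was likewise highest in 18-month replicates 1 and 4. The pigment epithelium list of 14 genes summed to 135 to 167 FPKM at 12 months and 116 to 229 FPKM at 18 months, with no member at 0. Within the Malat1-high and Malat1-low libraries the visual cycle median was 0.06 and 0.12. The part of adhering epithelium in this difference was not tested.

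The genes that make long polyunsaturated fatty acids showed no common direction, with 9 of 21 higher and a median of -0.0086, at -0.0094 to 0.04 with each library left out. In this list 3 of 21 genes were higher without overlap, where 1.95% of all genes were, and 0 were called. Elovl2 was at 19.4, 23.3 and 21.1 FPKM at 12 months and 24.0, 23.9, 23.9 and 23.9 FPKM at 18 months, with 18-month libraries nearly equal (log2 0.17, SE 0.0685). Elovl4, which extends fatty acids beyond the products of ELOVL2, was at 156, 179 and 178 and 191, 187, 185 and 194 FPKM (0.14). Abcd2, a peroxisomal transporter of very long acyl chains, was at 6.64, 7.72 and 7.67 and 8.63, 8.15, 8.28 and 8.16 FPKM (0.16). In each of these genes 12-month replicate 1 was the lowest wildtype library. Sterol synthesis genes were higher in 12 of 20 cases with a median of 0.03 (-0.04 without 12-month replicate 2 and 0.08 without 12-month replicate 3).

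The lists of clock, stress and turnover genes had medians of -0.16 to 0.07. Circadian clock genes were higher in 14 of 18 cases with a median of 0.07 (0.02 without 12-month replicate 1 and 0.15 without 12-month replicate 2), and Nfil3, a repressor of clock output, was at 8.70, 7.99 and 9.51 FPKM at 12 months and 6.87, 7.40, 7.29 and 7.24 FPKM at 18 months (log2 -0.24, SE 0.104), lower without overlap. Of 15 immediate early genes, which respond to activity and handling, 8 were expressed enough to test. Of these 8, 7 were lower, with a median of -0.16, at -0.17 to -0.11 with each library left out. Btg2 was the member without overlap, at 32.0, 32.1 and 30.8 and 29.5, 29.2, 24.6 and 28.1 FPKM (-0.18). Heat shock and unfolded protein genes had a median of -0.06 (-0.07 without 18-month replicate 2 and -0.02 without 12-month replicate 3), and Hsp90b1, a chaperone of the endoplasmic reticulum, was at 79.5, 75.0 and 79.5 and 65.1, 69.3, 64.9 and 66.0 FPKM (log2 -0.23, SE 0.0617) without overlap. Senescence and p53 target genes (6 of 12 higher, median -0.03, -0.06 to -0.01 with each library left out), antioxidant genes (10 of 19, 0.0088, -0.05 to 0.05), autophagy genes (15 of 21, 0.04, -0.02 to 0.07) and proteasome genes (21 of 25, 0.07, -0.02 to 0.21) included no gene without overlap. The shares over all genes were 1.95% higher and 2.22% lower, so 0 in a list of this size says little.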

How the data were processed

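RNA-seq was made from poly(A)-selected RNA of whole retinas with directional libraries, per the labels' protocols. The submitters' processing notes name HISAT2 2.2.1, featureCounts 2.0.6, DESeq2 1.42.0 and mm10, with no role or order. The authors deposited FPKM per gene for 10 uninjected libraries, with gene lengths, and raw read counts per gene for 6 injected libraries. Annotation release and strand setting: not given in the sources used here. FPKM times gene length gave whole reads for 99.95% of non-zero values, within 0.02, so reads were recovered.

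FPKM were tested with limma 3.58.1 (trend, robust, R 4.3.3) on log2(FPKM + 1), which understates changes of low genes, after keeping the 13786 of 54532 genes that averaged 1 FPKM or more. The 3 uninjected groups shared 1 fit, tests were two-sided, and p-values were Benjamini-Hochberg adjusted with a threshold of 0.05. The procedure was run on simulated counts with the same spread for every gene and no contrast shared between libraries. The real libraries have such a contrast, so that run does not show how the procedure does on them. edgeR 4.0.16 and DESeq2 1.42.0 on recovered reads, other pseudocounts, filters, scalings, terms and left-out libraries were alternatives. Intervals are 95%. Pairs of replicates differed by more than counting noise (chi-square per degree of freedom 3.25 to 47.6).

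The members and lists were chosen with earlier results of these data known. Named genes are the 5 markers, the 12 genes per direction with the smallest p and no overlap between the ages (without predicted models and pseudogenes), up to 4 genes per list by smallest p, and Elovl2, Gfap, Opn1sw, Malat1, Nnt, Xist and Ddx3y. Some of them are not reported here. Other genes were chosen after their values were seen. Lists, 39 in all, are described by counts and medians of the members that were tested. For the 102 symbols shared by several identifiers, the one with the higher mean was used.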

Additional observations from a re-analysis of the deposited data

Results flagged for a closer look

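In 5 of 49 values checked in the 18-month wildtype group, 1 of the 4 libraries lay far from the others. Chance gives about 1 in 20, but several of the genes checked were chosen with these data known. The count can therefore not be set against that rate. Pgm1 was at 3.78 FPKM in 18-month replicate 1 and 3.06 to 3.18 FPKM in the other libraries, which were still above all 12-month libraries. Ebf1 was at 2.96 FPKM in the same replicate, below the others at 3.28 to 3.34 FPKM, and Btaf1, a transcription regulator gene, at 10.3 FPKM below 13.4 to 13.8 FPKM. The fibroblast and matrix list took 0.0334% of its reads, against 0.0287 to 0.0292% in the others. Fgfbp3, a carrier protein gene for fibroblast growth factors, was at 8.54 FPKM in 18-month replicate 4 and at 4.04 to 4.60 FPKM in the others.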

How the results depend on the processing

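Against 0 calls, 4 genes passed with no filter on low values, 1 (Tmem181b-ps) with the Malat1 contrast as a term, 1 (Gabra2) by edgeR with TMM or with RLE factors, 2 (Gabra2 and Gm28265) by edgeR without a filter and 9 by DESeq2. With library quality weights 1246 passed (710 higher, 536 lower, all 5 markers among them), where 12-month replicate 1 had a weight of 5.76. With each wildtype library left out there were 0 calls each time. Against 503 genes at an unadjusted p under 0.05, there were 1334 with no filter, 267 at a mean FPKM of at least 5, 941 with the Malat1 term, 3914 with weights, 928 by edgeR without a filter, and 321 (without 18-month replicate 4) to 1560 (without 12-month replicate 3) with libraries left out. The replicate numbers do not pair the samples, with correlations of -0.05, 0.42 and -0.39 for same-numbered libraries. With the replicate block, in which 18-month replicate 4 has no partner and drops out of the contrast, 0 genes passed and 272 had an unadjusted p under 0.05.

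Of 438 alternative values for the 5 markers and the other named age genes, 0 changed direction and 31 passed the threshold. None of these genes overlapped between the ages, and they were chosen on this comparison, so leaving out a library could not reverse them. With library quality weights every one of them passed, which makes up most of the 31. Direction changed for Gfap (-0.71 to 0.090 with libraries left out), Malat1 (0.0084 with the block, 0.11 with its own contrast as a term, -0.68 to 0.38 with libraries left out) and Xist (-0.19 with weights, -0.067, -0.068 and -0.062 by edgeR with TMM, RLE and no filter, -0.061 by DESeq2, -0.44 to 0.32 with libraries left out). Without 12-month replicate 2, 13 of 37 list medians changed sign, and 2 to 7 did without another library. The cause was not tested. A term for sex was not run, since the Y-linked genes Ddx3y, Eif2s3y, Kdm5d and Uty had 0 reads in all 10 uninjected libraries. The 18-month libraries were the shallower ones, which limits low-level genes most there.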

Other observations

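Genes at which C57BL/6 substrains or colonies are known to differ were also read, since Gabra2 is one of them: the C57BL/6J strain carries a small intronic deletion that lowers Gabra2 RNA. Nnt, of which C57BL/6J lacks several exons, had 2 to 17 reads in each of the 10 uninjected libraries, at both ages. Crb1, in which C57BL/6N carries the rd8 mutation, was at 25.2 to 27.7 FPKM at 12 months and 27.3 to 28.4 FPKM at 18 months, and Cyfip2 at 40.3 to 52.8 and 44.0 to 58.2 FPKM. RNA levels do not show the alleles, and the part of strain background in the Gabra2 difference was not tested.

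The insulin-degrading enzyme gene Ide and Fgfbp3, which lie close together on chromosome 19 in a stretch known to vary in copy number among C57BL/6J mice, were both highest in 18-month replicate 4. Ide was at 10.98, 12.8, 13.4 and 18.1 FPKM in 18-month replicates 1 to 4 and 12.3, 13.8 and 11.8 FPKM at 12 months, and Fgfbp3 at 4.60, 4.04, 4.36 and 8.54 and 4.54, 3.81 and 5.44 FPKM. Btaf1, between them, was at 10.3, 13.4, 13.8 and 13.4 FPKM at 18 months, and that library lay among the others. All 3 belong to the list of genes known to vary among C57BL/6 mice, and Fgfbp3 and Btaf1 were picked from it after their values were seen. Copy number was not tested.

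Processed pseudogenes were higher at 18 months in 363 of 564 cases, with a median log2 difference of 0.06, at 0.05 to 0.10 with each library left out, while protein-coding genes were higher in 5877 of 11781 cases. Such copies share reads with their parent genes, so their levels are uncertain. Of the 3 genes tested that are annotated on the Y chromosome, the pseudogenes Mid1-ps1 and Gm21742 were picked after their values were seen. Mid1-ps1 was higher (1.43, 2.77 and 0.885 FPKM at 12 months, 5.44, 3.35, 6.39 and 6.11 FPKM at 18 months) and Gm21742 lower (5.09, 3.71 and 1.37 and 1.24, 0.136, 0.569 and 0.218 FPKM). Both passed by DESeq2 (adjusted p = 0.0304 and 0.0313) and not by limma (adjusted p = 0.9999 for each). Whether these reads came from the Y chromosome was not tested. Ddx3y, Eif2s3y, Kdm5d and Uty had 0 reads in all 10 uninjected libraries.

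In 12-month replicate 1, Gpx3, a secreted glutathione peroxidase gene, was at 48.0 FPKM against 3.66 to 6.93 FPKM at 18 months, and Grik1, a kainate receptor gene of OFF bipolar cells, was at 5.35 FPKM against 13.4 to 16.9 FPKM. The other 12-month libraries were at 3.64 and 4.85 FPKM for Gpx3 and at 15.4 and 13.8 FPKM for Grik1.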
